A study of Mus musculus with 6 samples.

Results

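The wild-type (WT) baseline of mouse neurons grown for 18 days in vitro was described from the 3 libraries labelled WT, out of 6 libraries in the series. The cells were primary neurons of cortex and hippocampus, mixed, from mice of C57BL/6 background, kept in equal parts of Neurobasal medium and DMEM with the B27 supplement. The other 3 libraries are Tlr7-/- cultures of the same strain and age and were not compared with WT here. Messenger RNA was sequenced from total RNA with a strand-marking kit, and nothing in the labels says whether the 3 WT libraries came from separate animals or dissections. The p-values given here therefore measure only the spread between these 3 libraries, which may be partly technical.

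Mixed forebrain cultures hold glutamatergic pyramidal neurons, which load vesicles with glutamate through the transporter Slc17a7, and GABAergic interneurons, which make GABA with Gad1 and Gad2 and load it through Slc32a1. Astrocytes clear glutamate and supply lipid and glutamine, and oligodendrocyte precursors are the glia that can still divide and later make myelin. Neuronal firing switches on immediate early genes such as Fos and Npas4 within minutes and, later, secreted peptides and growth factors such as Bdnf.

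The 3 libraries held 25696625, 23351002 and 24627061 gene counts. Of 25814 genes listed, 8531 had no count in any WT library and 15429 had a count in every one. At a level of 1 TPM or more in every library (a read level per gene length that sums to the same total in each library) stood 12761 genes, of which 9038 reached 10 TPM, 1877 reached 100 TPM and 103 reached 1000 TPM. No library repeated another, since the counts of each pair differed by more than sampling noise, with chi-square per degree of freedom of 4.27 between replicates 1 and 2, 6.41 between 2 and 3, and 11.8 between 1 and 3. A count of 0 allows up to 3 counts, or 0.117 to 0.128 CPM (counts scaled to the library total, with no length), and covers counting error only.

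Replicate 3 stood apart from the other two in Y-linked genes and in several macrophage genes. The Y-linked gene Ddx3y, an RNA helicase, had 282 counts in replicate 1, 493 in replicate 2 and 0 in replicate 3. Kdm5d, a Y-linked histone demethylase, had 254, 418 and 1 counts in the same order, and Uty had 53, 119 and 0. Replicate 3 also carried the most counts of several macrophage genes and the fewest of many activity-regulated genes, both described below.

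A small set of very abundant messages dominated the libraries. The 25 genes with the highest mean level held 13.3% ± 0.649 of all TPM (SD, n = 3), 627 genes held 50% and 5261 held 90%. Of those 25 genes, 9 were encoded by the mitochondrial genome. The highest was mt-Co1, a subunit of cytochrome c oxidase, at 21711, 23703 and 23649 TPM in replicates 1, 2 and 3. It was followed by mt-Co3 at 12710 ± 1262 TPM, mt-Co2 at 11979 ± 1360 TPM and mt-Cytb at 8380 ± 1253 TPM (SD, n = 3). All 13 mitochondrial protein genes together took 6.83, 8.03 and 8.34% of TPM, but 2.60, 3.04 and 3.14% of counts, since a level per length gives short messages more weight.

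The most abundant nuclear gene was Tuba1a, the alpha tubulin of growing and adult neurites, at 7896, 7748 and 7664 TPM. The glycolytic enzyme Gapdh averaged 6207 ± 243 TPM, the iron store subunit Fth1 5049 ± 92.3 TPM and the elongation factor Eef1a1 4589 ± 74.7 TPM (SD, n = 3). Further down the 25 stood the beta tubulin Tubb2a, the actin Actg1, the polyubiquitin gene Ubb, the heat shock cognate Hspa8, the selenoprotein Selenow, the ribosomal stalk protein gene Rplp1 and an Aldoa entry. Of the genes of calmodulin, the calcium sensor, Calm3 at 2781 ± 73.0 TPM lay above Calm2 at 2615 ± 29.2 TPM, with no overlap (SD, n = 3). The remaining 3 were products of glia or of secretory cells: Apoe, a lipid carrier of astrocytes, at 3315, 3025 and 2902 TPM, Cst3, a secreted protease inhibitor, at 2569, 2628 and 2559 TPM, and Cpe, the carboxypeptidase that trims peptide hormones, at 3191, 3109 and 2963 TPM.

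**Figure D1:**
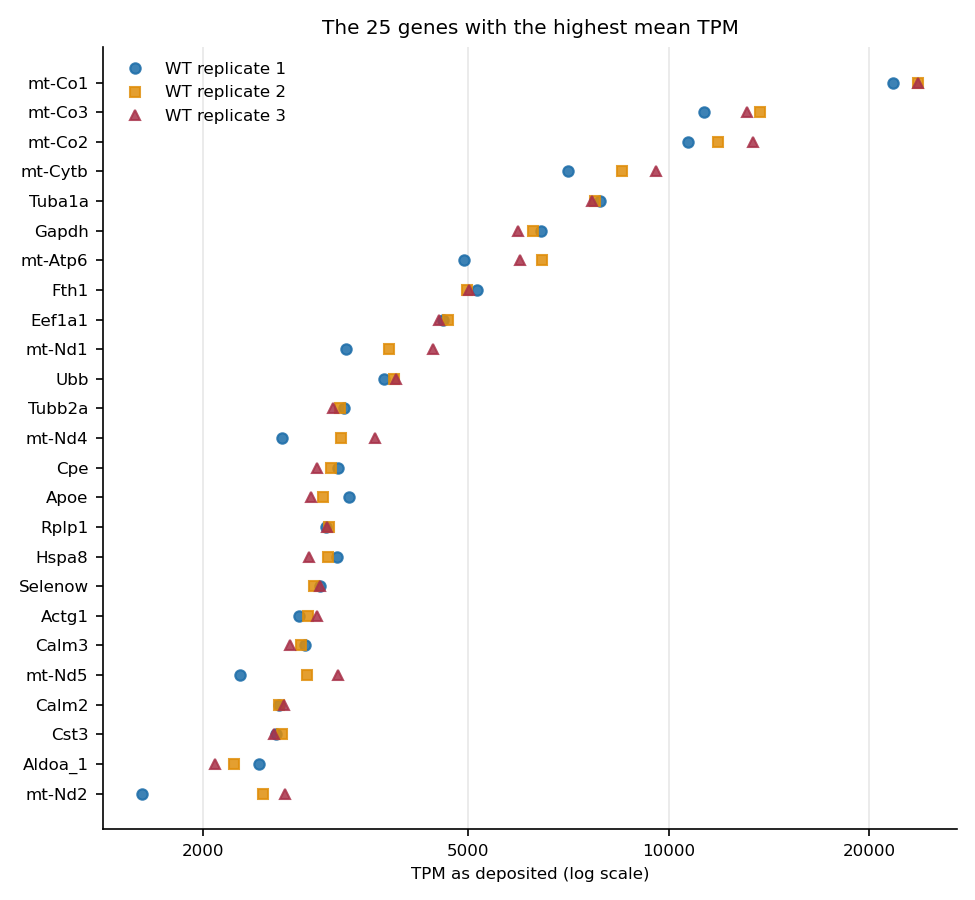
Deposited TPM (horizontal axis, log scale) of the 25 genes with the highest mean over the WT libraries, 1 row per gene and 1 point per library. The mitochondrial genes are lowest in replicate 1, while nuclear genes such as Tuba1a and Fth1 lie close together.

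Marker lists of neuronal and glial classes differed widely in level. In bulk samples fewer cells of a type and less RNA per cell cannot be told apart, so the sums below compare messages and not cell numbers. The 19 general neuronal markers summed to 11627, 11520 and 11794 TPM, led by the synaptic vesicle protein gene Syp at 1536 ± 43.4 TPM, Uchl1 at 1479 ± 21.3, Stmn2 at 1395 ± 11.1 and the growth cone protein gene Gap43 at 1325 ± 30.2 (SD, n = 3). All 19 were above 10 TPM in every library. The nuclear marker of mature neurons Rbfox3 stood at 132, 133 and 143 TPM, whereas Dcx, a marker of young neurons, stood at 18.2, 22.2 and 26.1 TPM.

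Astrocyte markers formed the largest cell list, at 15702, 14890 and 15340 TPM over 30 genes, none of which was at 0. After Apoe and Cst3 came Sparcl1 at 1498 ± 12.9 TPM, the astrocytic aldolase Aldoc at 1287 ± 60.2, glutamine synthetase Glul at 1109 ± 88.0 and the filament protein gene Gfap at 804 ± 64.6 (SD, n = 3). Gfap had 872, 795 and 744 TPM in replicates 1, 2 and 3. The water channel Aqp4 was far lower, at 86.2, 84.2 and 105 TPM, and the connexin Gjb6 lower still at 5.02, 4.72 and 3.60 TPM. Several of these markers, among them Apoe, Cst3 and Glul, are also made by other brain cells, so the sum is not specific to astrocytes.

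Oligodendrocyte precursor markers summed to 1431, 1425 and 1423 TPM over 16 genes, while 18 myelin and mature oligodendrocyte markers summed to 394, 380 and 342 TPM. The lineage factors Olig1 at 315, 347 and 426 TPM and Olig2 at 113, 113 and 123 TPM were clearly present, as was the growth factor receptor Pdgfra at 68.0, 70.1 and 72.3 TPM. Of the myelin list, Cnp made up 175 ± 18.8 TPM, and the main myelin protein gene Mbp stood at 64.8 ± 3.63 TPM (SD, n = 3). Markers of the myelinating stage were low, with Mog at 0.589, 1.22 and 2.32 TPM, Opalin at 8, 1 and 2 counts and Klk6 at 0, 0 and 1 counts. The ratio of Pdgfra to the myelin glycoprotein gene Mag was 5.97 ± 0.700 (SD, n = 3), and 9.40 with the union exon length of the GENCODE annotation.

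Radial glia and precursor markers were present through genes that astrocytes share, such as Fabp7, Vim, Sox2 at 59.7 ± 6.18 TPM and Hopx at 57.6 ± 10.6 TPM (SD, n = 3). Eomes, a marker of neurogenic intermediate precursors, was at 5, 6 and 7 counts. Cell division genes were led by Pcna at a mean of 106 TPM and Hmgb2 at 36.8 TPM, and the other members were lower. Mki67 was at 5.99, 7.57 and 10.5 TPM and Top2a at 13.8, 15.4 and 19.7 TPM. Of the 18 genes of that list 1 passed the variability test described below, Mki67, against 1.31% of all tested genes. Replicate 3 was highest in 17 of the 18. Across all tested genes replicate 3 was highest in 38.5%.

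Messages of other cell types were near the detection floor. Vessel lining markers Cldn5, Cdh5 and Tie1 had 0 counts in every WT library, and 10 of 12 endothelial markers stayed under 1 TPM. The endothelial sum of 212, 187 and 125 TPM was mostly Slc2a1, the glucose transporter that astrocytes also make. Of 17 markers of microglia and macrophages, Tmem119 had 1, 0 and 0 counts, P2ry12 had 4, 5 and 4, and Cx3cr1 had 1, 1 and 4. The list summed to 59.8, 48.8 and 96.6 TPM, of which the lysosomal gene Cd68 gave 29.2, 22.2 and 21.7 TPM. Red blood cell genes summed to 4.05, 5.88 and 6.03 TPM, with Alas2 and Hbb-bt at 0, and Pmp2, a myelin gene of peripheral nerve, had 0, 3 and 0 counts. The pericyte, fibroblast and meningeal list summed to 441, 401 and 421 TPM, of which the growth factor binding protein gene Igfbp2 gave 352 ± 15.5 (SD, n = 3), while Kcnj8 had 0 counts and Col1a1 had 19, 16 and 13.

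**Figure D2:**
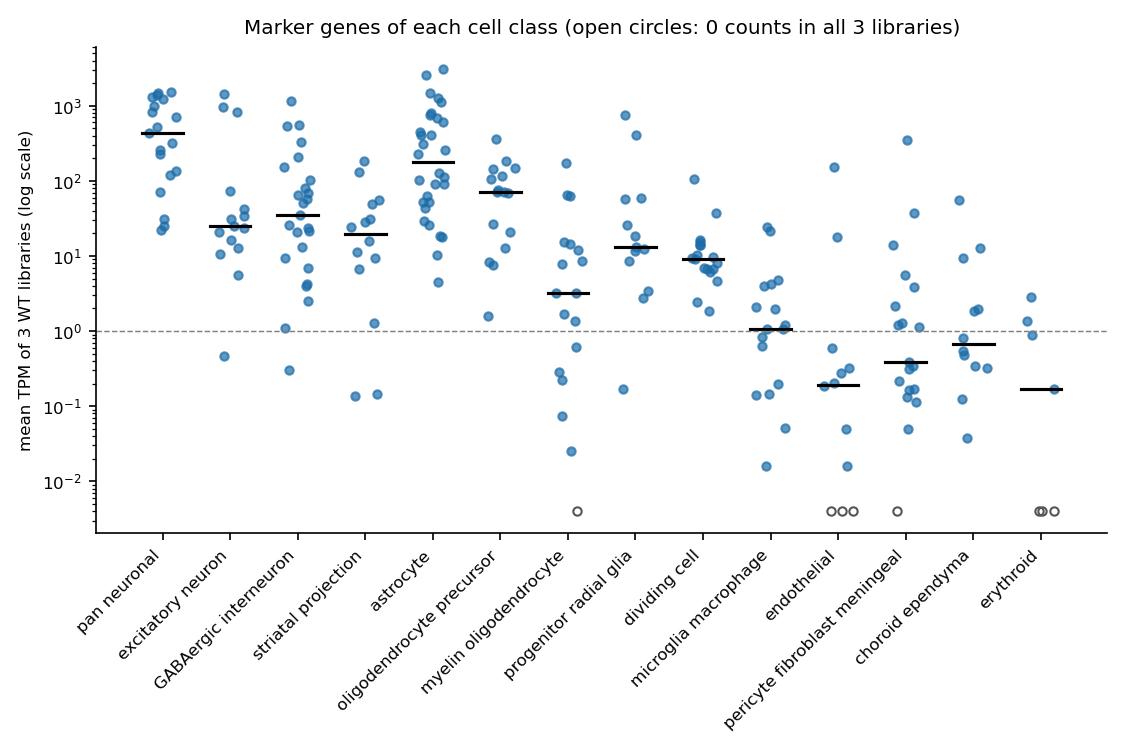
Mean deposited TPM over the 3 WT libraries (vertical axis, log scale) of each marker gene, 1 column per cell class, with the median of all genes of the list as a bar and genes without a count as open circles. Neuronal, astrocytic and oligodendrocyte precursor markers lie high, and most endothelial, red blood cell and macrophage markers lie under 5 TPM.

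Regional markers were set beside the dissection given in the labels. Hippocampal and cortical transcription factors were present together: Tbr1, a factor of deep layer neurons, at 23.6 ± 1.64 TPM, Cux2, a factor of upper layers, at 25.3 ± 0.460, and Prox1, a factor of dentate granule cells, at 5.33 ± 0.189 TPM (SD, n = 3). Fibcd1, a marker of hippocampal CA1, stood at 10.5 ± 0.215 TPM. Of 28 genes that mark other brain regions, 21 stayed under 1 TPM in every library. Hoxb2, Hoxb3, the cerebellar receptor subunit gene Gabra6 and the hypothalamic peptide genes Oxt and Pmch had 0 counts. The marker of cholinergic neurons, Chat, was at 0, 1 and 3 counts.

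Genes that mark projection neurons of the striatum were present too. Ppp1r1b, the dopamine-regulated phosphatase inhibitor, stood at 158, 164 and 237 TPM, and the enkephalin gene Penk at 121, 121 and 154 TPM. Ppp1r1b passed the variability test described below (adjusted p 6.46e-05 by edgeR), and Penk did not. Replicate 3 was the highest in both genes and in 10 of the 12 tested members of the list, against 38.5% of all tested genes. Of the 12 tested members 2 passed, against 1.31% of all tested genes. The other member that passed, the dynorphin gene Pdyn, was highest in replicate 1 and lowest in replicate 3, at 15.8, 10.4 and 7.77 TPM (adjusted p 0.0159 by edgeR). Cortical and hippocampal neurons express several of these genes as well. Isl1 and Ebf1, transcription factors of striatal projection neurons, had 2 to 9 counts per library.

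Transmitter identity was dominated by glutamate and GABA. The vesicular glutamate transporter Slc17a7 (chr7:45163949-45176142, GRCm38, plus strand) had 997, 953 and 972 TPM in replicates 1, 2 and 3. Its relatives were much lower, with Slc17a6 at 12.3, 13.1 and 12.9 TPM and Slc17a8 at 0.425, 0.336 and 0.616 TPM. The GABA transporter Slc32a1 (chr2:158610767-158615748, plus strand) had 153, 146 and 154 TPM. Slc17a7 exceeded Slc32a1 by 6.46 ± 0.121 fold within a library (SD, n = 3), and by 3.58 fold with the GENCODE union exon lengths, so the size of that ratio depends on the transcript length assumed. Slc17a7 exceeded Slc17a6 by 76.5 ± 4.29 fold, or 44.2 fold with those lengths.

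The GABA-making enzymes stood in the order Gad1 at 349, 329 and 326 TPM and Gad2 at 98.7, 101 and 106 TPM, a ratio of 3.29 ± 0.226 (SD, n = 3), or 2.09 with the union exon lengths. Gls2, a glutaminase, had 8.78, 7.90 and 6.21 TPM. The astrocytic glutamate carriers Slc1a3 and Slc1a2 stood at 611 ± 33.9 and 261 ± 3.76 TPM (SD, n = 3). The ratio of Slc1a3 to Slc1a2 was 2.34 ± 0.162, and 1.30 with the union exon lengths. Monoamine neurons were at trace level: Th, which makes dopamine precursors, had 47, 29 and 29 counts, Tph2, which makes serotonin precursors, had 12, 10 and 9, and the noradrenaline carrier Slc6a2 had 0, 1 and 0.

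Interneuron peptides and calcium-binding proteins were unequal. Somatostatin, Sst, had 1195, 1118 and 1184 TPM, and lay above Cck at 541, 544 and 519 TPM and Npy at 210, 212 and 200 TPM. Cck is also made by many pyramidal neurons. Vip had 75.7, 66.7 and 54.6 TPM and overlapped with Cort and Reln, whereas Pvalb, the parvalbumin of fast-spiking interneurons, had 29, 20 and 18 counts. Sst exceeded Pvalb by 484 ± 102 fold (SD, n = 3). It exceeded Vip by 18.1 ± 3.17 fold (SD, n = 3), or 40.2 fold with the union exon lengths. The overlap of Vip with Cort and Reln therefore holds for the deposited TPM only. Lhx6, the factor that both Sst and Pvalb interneurons require, was at 32.8, 35.8 and 36.9 TPM, and the embryonic factor Nkx2-1 was at 8, 7 and 7 counts. None of the 24 tested interneuron markers and none of the 15 excitatory neuron markers passed the variability test described below in edgeR, against 1.31% of all tested genes. Of them 4 and 1 had an unadjusted p under 0.05 in edgeR, against 833 of all 13548 tested genes, and none was called by DESeq2. With the GC and length trends removed 1 interneuron marker passed, Vip, and without replicate 3 there was 1.

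Chloride transporters set whether GABA depolarises or hyperpolarises a neuron. The extruder Slc12a5 had 176, 175 and 188 TPM and the importer Slc12a2 had 11.0, 11.7 and 11.8 TPM. Their ratio was 15.6 ± 0.561 (SD, n = 3), and 22.7 with the union exon lengths.

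Among ionotropic glutamate receptors the AMPA subunits, which carry fast excitation, had a fixed order without overlap. Gria1 had 288, 285 and 280 TPM, Gria2, the subunit that makes the channel impermeable to calcium, had 95.6, 103 and 117 TPM, Gria3 had 53.1, 58.8 and 64.7 TPM and Gria4 had 32.8, 34.9 and 35.0 TPM. Per molecule of message Gria1 thus exceeded Gria2 by 2.72 ± 0.311 fold (SD, n = 3), or 3.92 fold with the union exon lengths. The level of Gria2 rests on a length of 10527 bases recovered from the deposited values, against 5893 bases for Gria1.

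NMDA receptors, the coincidence detectors of synaptic plasticity, need Grin1 in every channel. Grin1 had 308, 304 and 289 TPM, followed by Grin2b at 60.3, 60.8 and 63.6 TPM, Grin3a at 36.8, 36.1 and 37.6 TPM and Grin2a at 17.3, 17.8 and 18.3 TPM, each apart from the next. Grin2b, the subunit that prevails early in forebrain development, exceeded Grin2a, the subunit that gains with maturation, by 3.46 ± 0.0373 fold (SD, n = 3), or 4.14 fold with the union exon lengths. The excess of Grin1 over Grin2b was 4.89 ± 0.302 fold, but 2.20 fold with those lengths. Grin2d at 5.89 ± 0.649 TPM and Grin2c at 2.46 ± 0.262 TPM were low (SD, n = 3). Among kainate receptors the accessory subunit gene Grik5 stood highest at 170, 166 and 170 TPM, above Grik3 at 34.9, 34.1 and 41.6 TPM and Grik1 at 25.7, 22.2 and 22.4 TPM, while Grik4 and Grik2 overlapped.

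Metabotropic glutamate receptor genes included, from high to low and without overlap, Grm5, Grm3, Grm7, Grm4, Grm2 and Grm8, with Grm6, the receptor of retinal bipolar cells, at 0 counts. Grm5 had 49.3, 56.1 and 60.6 TPM and Grm3, which astrocytes share, had 33.0, 37.5 and 35.4 TPM.

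GABA-A receptor subunits, which form the fast inhibitory chloride channel, included Gabra5, the extrasynaptic alpha subunit typical of hippocampus, at 124, 132 and 140 TPM. It lay above Gabra3 at 102, 103 and 113 TPM and Gabrb2 at 55.2, 60.7 and 70.0 TPM. Gabra4 at 32.2, 36.7 and 41.6 TPM and the delta subunit gene Gabrd at 32.4, 31.5 and 27.5 TPM overlapped, and Gabra2 was lower at 10.5, 12.8 and 13.5 TPM. Gabra5 overlaps another gene on the opposite strand. The metabotropic GABA-B genes Gabbr1 at 299, 295 and 282 TPM and Gabbr2 at 197, 195 and 210 TPM, both needed for a working receptor, were more abundant than these GABA-A subunit genes. Glycine receptors were present mainly through Glrb at 69.7 ± 1.67 TPM, the subunit gene through whose product gephyrin anchors the receptor in inhibitory synapses.

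Receptors for modulators ranged widely. The muscarinic receptor Chrm1 of pyramidal neurons had 88.6, 89.4 and 97.2 TPM, above Chrm4 at 28.4, 32.4 and 28.0 TPM and Chrm3 at 20.4, 22.6 and 19.7 TPM. The nicotinic subunits Chrnb2 at 25.6 ± 1.46 TPM, Chrna4 at 18.9 ± 1.86 and Chrna7 at 18.2 ± 1.23 led the 16 (SD, n = 3). They were the only ones with more than 2 TPM in any library, and the last 2 overlapped in deposited TPM. Chrnb2 exceeded Chrna7 by 1.41 ± 0.0686 fold (SD, n = 3), or 3.03 fold with the union exon lengths, so the level of Chrna7 beside the others depends on the length assumed. The cannabinoid receptor Cnr1 had 72.6, 71.9 and 77.0 TPM, the nociceptin receptor Oprl1 38.6, 41.8 and 40.1 TPM and the delta opioid receptor Oprd1 9.28, 9.61 and 10.2 TPM, whereas the mu opioid receptor Oprm1 had 8, 5 and 6 counts. Adenosine A1 receptor, Adora1, stood at 115, 99.9 and 106 TPM. Dopamine receptor Drd2 at 474, 449 and 657 counts and 24.1 ± 5.14 TPM (SD, n = 3) lay above Drd1 at 6.70, 6.68 and 6.70 TPM.

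Serotonin receptors were led by the ion channel subunit gene Htr3a at 24.0 ± 1.27 TPM, with Htr1a at 15.3 ± 2.40 and Htr2c at 14.1 ± 0.801 overlapping below it (SD, n = 3). Adra2a at 27.1 ± 3.16 TPM and Adrb1 at 17.2 ± 1.37 led the adrenergic receptors, and Hrh3 at 50.4, 49.8 and 45.3 TPM led the histamine receptors. For peptides and trophic factors the BDNF receptor Ntrk2 had 218, 201 and 197 TPM and the PACAP receptor Adcyap1r1 had 117, 117 and 132 TPM, the ligands of both being Bdnf and Adcyap1, whose levels are given below. The endosomal receptor Tlr7, which the other arm of the series lacks, had 4, 8 and 4 counts, and among 12 Toll-like receptor genes only Tlr3 exceeded 1 TPM, at 2.75, 3.11 and 3.09 TPM.

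**Figure D3:**
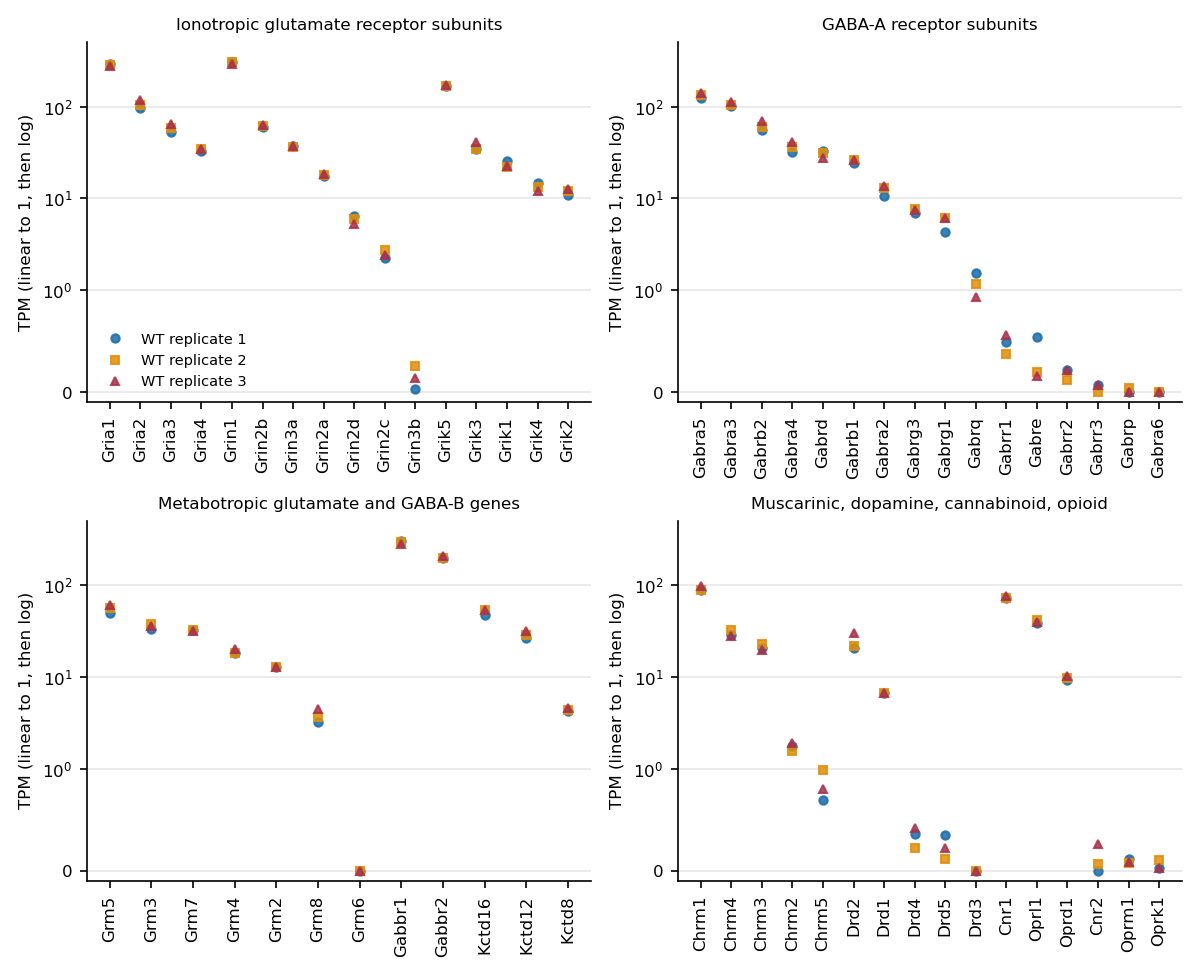
Deposited TPM (vertical axis, linear up to 1 and log above) of selected receptor genes in each of the 3 WT libraries, in 4 panels ordered by mean level within each family. Library points of 1 gene lie close together, and the spread between genes of a family, from Gria1 to Gria4 or from Gabra5 to Gabra6, is far wider.

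Genes of the synaptic and firing machinery were abundant. Vamp2, the vesicle fusion protein gene, had 1255, 1121 and 1116 TPM, and the fusion partner gene Stx1a had 399, 398 and 398 TPM. On the receiving side Camk2a stood at 807, 791 and 851 TPM, Camk2b at 657, 650 and 680 TPM and the scaffold gene Dlg4, which encodes PSD-95, at 501, 486 and 477 TPM. Sodium channel message was led by Scn2a at 87.5 ± 7.64 TPM, with Scn8a at 45.7 ± 2.39 (SD, n = 3) and Scn1a, the channel of fast-spiking interneurons, lower at 14.3, 14.1 and 16.6 TPM.

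Variability between the libraries was tested gene by gene. For 13548 genes with enough counts in every library the spread of the 3 libraries was compared with that of genes of like abundance. The test was edgeR's goodness-of-fit test, one-sided, with Benjamini-Hochberg adjustment over all 13548 genes. The common biological coefficient of variation was 7.02%, and the median gene differed by 1.12 fold between its highest and lowest library. In all, 178 genes passed at an adjusted p under 0.05, or 1.31% of those tested, and 272, or 2.01%, had a range of 2-fold or more, 65 of them in common with the first set. At an unadjusted p under 0.05 there were 833, and DESeq2 marked 99 genes as dispersion outliers. With 2 libraries the edgeR count was 73 without replicate 1, 80 without replicate 2 and 52 without replicate 3. A stricter reading of the same fit, setting each gene's quasi-dispersion against its prior, left 1 gene, Lyz2.

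None of the 83 presynaptic, postsynaptic and voltage-gated channel genes passed, against 1.31% of all tested genes. None had an unadjusted p under 0.05 in edgeR, against 833 of all 13548 tested genes, and none was an outlier in DESeq2. Their median range was 1.07 fold, against 1.12 fold for all tested genes. Of 115 tested receptor genes over 17 families 1 passed, the nucleotide receptor gene P2ry2 at 101, 73 and 34 counts, and 11 had an unadjusted p under 0.05. P2ry2 no longer passed once the GC and length trends described below were removed. The median range of these 115 genes was 1.18 fold. In both groups the number that passed lay near the share over all tested genes.

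Replicates 1 and 3 held the extremes of most variable genes. Of the 178 genes, 95 were highest in replicate 1 and lowest in replicate 3 and 39 the reverse, and replicate 2 lay between the other two in 75.3% of them, against 48.3% of all tested genes. Replicate 3 was the lowest library for 109 of the 178 genes and for 38.5% of all tested genes, replicate 1 was the highest for 97 of the 178 and for 36.2% of tested genes, and replicate 2 was the highest for 22 and the lowest for 22, against 25.3% and 26.4% of tested genes. Composition moved with the libraries as well: the correlation across genes of a library's deviation with GC content was Spearman rho 0.261 in replicate 1, -0.0732 in replicate 2 and -0.189 in replicate 3. After the trends with GC content and length were removed, 152 of 177 of the genes still passed.

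**Figure D4:**
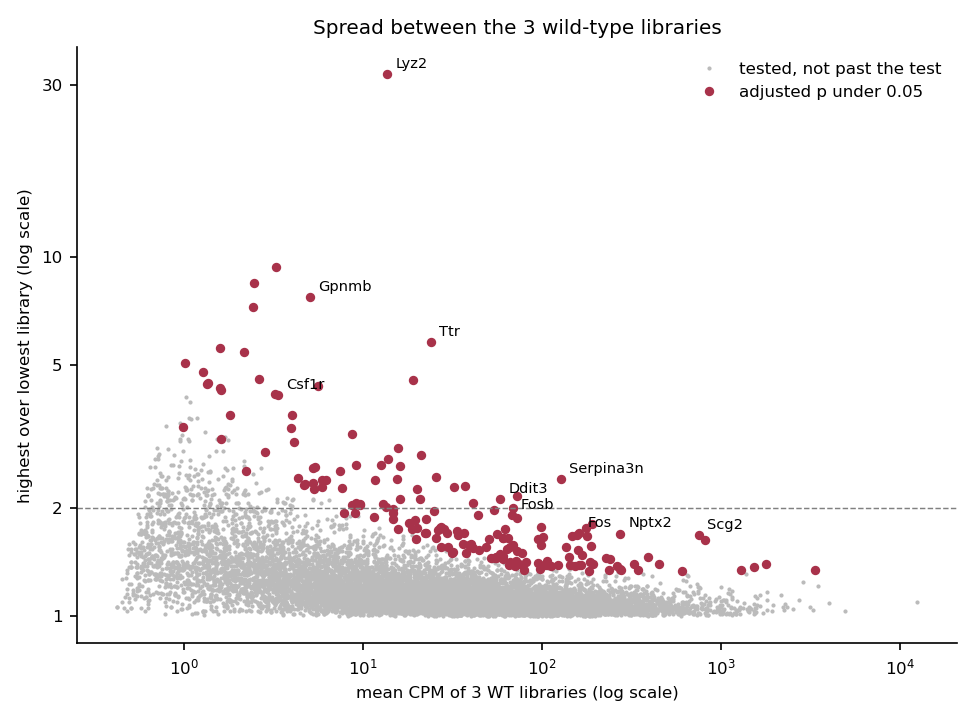
Ratio of the highest to the lowest WT library (vertical axis, log scale) against mean CPM (horizontal axis, log scale), 1 point per tested gene, with the genes at an adjusted p under 0.05 in red and the ratio of 2 as a dashed line. Lyz2 and Ttr lie far above genes of like abundance, and Scg2, Nptx2 and Fos are among the abundant genes that passed.

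Of the genes in the main test the most variable was Lyz2 (chr10:117277331-117282321, GRCm38, minus strand), the lysozyme of macrophages, with 57, 27 and 920 counts in replicates 1, 2 and 3. Its range was 32.2 fold and its adjusted p 1.73e-93 by edgeR. Some genes that the filter left out, such as Kdm5d and C1qb, ranged wider. Several other macrophage genes had the same library on top. Csf1r, the receptor macrophages need to survive, had 59, 35 and 153 counts (adjusted p 1.125e-05 by edgeR), Gpnmb had 72, 33 and 269 and Nckap1l had 42, 19 and 73. Csf1r overlaps another gene on the opposite strand. Of the 3 tested members of the microglia and macrophage list, Csf1r alone was highest in replicate 3, and the other 2, Cd68 among them, were highest in replicate 1 and did not pass.

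Most macrophage genes had too few counts in at least 1 library for the main test and entered only a fit without the abundance filter. That fit called 239 genes, 75 of them not tested before. Of the 75, replicate 1 was the highest library in 8, replicate 2 in 20 and replicate 3 in 47, against 38.5% of the genes in the main test for replicate 3. The share over all genes that the filter left out was not taken. The 75 had failed the filter through a low library, and those named here were chosen with their values known. The 47 are therefore no test of a macrophage pattern. The protease gene Ctss had 11, 3 and 153 counts, C1qb, a subunit of complement C1q, had 8, 1 and 109, Mpeg1 had 12, 7 and 107, and Tyrobp, the adaptor of Trem2, had 1, 4 and 63. Trem2 itself had 1, 0 and 35 counts. Ctss, C1qb, Tyrobp and Trem2 were each at under 1 TPM in replicates 1 and 2 and at 3.56 to 13.1 TPM in replicate 3. Fcrls, a gene of resting microglia, had 4, 4 and 30 counts, while Tmem119, P2ry12 and Cx3cr1, markers of the same state, had no more than 5 counts in any library, too few to show a pattern.

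Ttr, the thyroid hormone carrier that is the chief product of choroid plexus, had 160, 679 and 894 counts, a range of 5.79 fold (adjusted p 1.88e-34 by edgeR). Several other choroid genes stayed low, with Kl at 28, 17 and 18 counts and Clic6 at 10, 10 and 15. Kcnj13 had 0, 2 and 2 counts, and Otx2, which choroid epithelium needs, had 7, 6 and 15. Rarres2, next below Ttr by mean TPM in the choroid and ependyma list, had TPM values that overlapped those of Ttr. Of the 7 tested members of that list 4 were highest in replicate 3, against 38.5% of all tested genes. Replicate 1 was highest in 2 of them and replicate 2 in 1, against 36.2% and 25.3%. Foxj1, the factor of ciliated cells, had 213, 136 and 293 counts (adjusted p 0.0353). The smooth muscle actin gene Acta2 had 3, 1 and 55 counts and the related Tagln 38, 34 and 91, both with the most in replicate 3. These 2 genes are not typical of the pericyte, fibroblast and meningeal list, of whose 10 tested members 8 were highest in replicate 1 and 2 in replicate 3, against 36.2% and 38.5% of all tested genes.

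Among the 20 genes with the largest range that passed the main test, several have no clear identity or a close copy. Tmem254a, Tmem254b and Tmem254c are near-identical copies and the split of reads between them is uncertain, as with Tmem254b at 171, 458 and 750 counts. Gm21541, Gm21887, Gm29609, Gm43796, Gm6710, AL592169.1, Olfr287, Zfp97 and Zfp781 are predicted, olfactory or zinc finger genes, and Gm29609, Gm43796, AL592169.1, Olfr287 and Zfp97 overlap another gene on the same strand. Over all 178 genes, 24 overlap another gene on the same strand, or 13.5% against 4.93% of tested genes, so their values are uncertain where reads could be shared. Sphk1, which makes the lipid signal sphingosine 1-phosphate, had 58, 48 and 10 counts, the chemokine gene Ccl17 had 51, 38 and 11, Rhbdf2 had 46, 42 and 10 and Tmem154 had 121, 88 and 28, and for these 4 genes replicate 3 was the lowest.

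Of 9 tested interferon and inflammation genes 2 passed, Serpina3n and Lcn2, against 1.31% of all genes, and both were lowest in replicate 3. Over the 9, replicate 2 was lowest in 5 and replicate 3 in 4, against 26.4% and 38.5% of all tested genes. Serpina3n (chr12:104406729-104414329, plus strand), a secreted inhibitor made by reactive astrocytes, had 253, 168 and 106 TPM (adjusted p 5.70e-21 by edgeR). Lcn2, another reactive astrocyte gene, had 19.4, 9.27 and 7.53 TPM, and the chemokine gene Cxcl1 had 52, 38 and 2 counts. Of 20 stress and hypoxia genes 4 passed, against 1.31% of all genes, namely Ddit3, Hspa1b, Hmox1 and Slc2a1, each highest in replicate 1 and lowest in replicate 3. Without replicate 3 none of the 20 passed in edgeR, against 3 without replicate 1 and 4 without replicate 2. Ddit3, the death-promoting factor of the unfolded protein response, had 243, 199 and 115 TPM, while its upstream regulator Atf4 had 468, 490 and 458 TPM and the chaperone gene Hspa5 319, 329 and 288 TPM and did not pass.

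Of the gene lists examined, the immediate early genes had the most members among the variable genes by number. By share the mitochondrially encoded list stood higher, with 7 of 13 members, described below. Of 34 immediate early genes tested 14 passed, against 1.31% of all genes. Replicate 3 was the lowest library for all 14 and for 32 of the 34, against 38.5% of all tested genes. Fos (chr12:85473890-85477273, plus strand) had 257, 246 and 151 TPM in replicates 1, 2 and 3, so replicate 3 lay well below the other two (adjusted p 6.64e-09 by edgeR). Fosb had 61.4, 60.0 and 32.3 TPM, the widest range of the list at 1.91 fold (adjusted p 1.93e-10 by edgeR). Junb, the partner of Fos proteins in AP-1, had 179, 182 and 104 TPM.

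The pattern ran through other activity-regulated factors. Npas4, which neurons induce upon calcium entry, had 180, 175 and 108 TPM, the orphan receptor gene Nr4a1 118, 113 and 71.9 TPM and the clock and immediate early gene Per1 108, 97.4 and 61.9 TPM. Nptx2, a secreted protein that clusters AMPA receptors, differed in all 3 libraries at 392, 300 and 232 TPM. The phosphatase genes Dusp1 and Dusp6, which end MAP kinase signals, had 97.3, 84.7 and 57.6 TPM and 70.2, 60.6 and 47.4 TPM. Fosl2, Ier3, Atf3, Egr4 and Bdnf completed the 14.

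The group was not uniform. Arc, the synaptic capsid-like protein gene, had 65.9, 65.9 and 61.3 TPM, Egr3 had 41.9, 42.2 and 44.2 TPM, Homer1 had 19.5, 20.7 and 20.1 TPM and Egr2 had 8.07, 8.50 and 7.70 TPM, and none of these passed. Egr1, with 50.5, 50.3 and 41.6 TPM, did not pass either. The count of genes that passed was 12 without replicate 1, 10 without replicate 2 and 1 without replicate 3, so the count rests on replicate 3. With the GC and length trends removed all 14 still passed and replicate 3 was lowest in 33 of the 34.

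Peptides and the granin proteins of dense core vesicles showed a like order. Of 28 tested members 7 passed, against 1.31% of all genes, each highest in replicate 1 and lowest in replicate 3. Replicate 3 was lowest in 22 of the 28, against 38.5% of all tested genes. Scg2 (chr1:79434669-79440120, minus strand), a granin that is cut into secretoneurin, had 1040, 888 and 622 TPM (adjusted p 3.48e-08 by edgeR). Bdnf had 52.8, 44.5 and 32.4 TPM, Adcyap1, which encodes PACAP, had 107, 90.2 and 65.3 TPM, and Vgf had 445, 378 and 306 TPM. Pdyn, Scg3 and the prohormone convertase gene Pcsk1 were the other 3. Sst, Cck, Npy, Chgb and Pcsk2 did not pass, with Chgb at 465, 412 and 408 TPM. Without replicate 3 none of the 28 passed in edgeR, without replicate 1 there were 2 and without replicate 2 there were 4, while with the GC and length trends removed all 7 still passed.

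Promoters are shown for 4 genes of these groups, to set the cyclic AMP response element (CRE), through which many of these genes answer to neuronal activity, beside their values. They run from 250 bases before to 50 bases after the annotated start (RefSeq, GRCm38.p6), 5′ to 3′ on the gene's strand, and capitals mark the CRE letters TGACGTCA in the first 3 and the TATA letters TATAAA in Fos. The windows are chr1:79439977-79440276 (minus strand) for Scg2, chr17:26508423-26508722 (minus strand) for Dusp1, chr16:23890795-23891094 (minus strand) for Sst and chr12:85473640-85473939 (plus strand) for Fos.
Scg2: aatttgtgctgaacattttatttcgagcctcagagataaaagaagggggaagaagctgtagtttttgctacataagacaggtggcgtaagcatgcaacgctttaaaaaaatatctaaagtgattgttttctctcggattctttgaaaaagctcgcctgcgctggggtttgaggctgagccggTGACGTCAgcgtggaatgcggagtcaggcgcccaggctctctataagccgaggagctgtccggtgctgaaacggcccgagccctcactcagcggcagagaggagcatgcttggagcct
Dusp1: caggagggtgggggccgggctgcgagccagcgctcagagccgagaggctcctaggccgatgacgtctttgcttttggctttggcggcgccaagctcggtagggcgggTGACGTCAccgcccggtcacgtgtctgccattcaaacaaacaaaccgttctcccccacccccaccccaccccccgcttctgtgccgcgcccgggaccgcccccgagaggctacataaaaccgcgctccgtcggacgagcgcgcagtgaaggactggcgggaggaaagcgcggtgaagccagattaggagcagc
Sst: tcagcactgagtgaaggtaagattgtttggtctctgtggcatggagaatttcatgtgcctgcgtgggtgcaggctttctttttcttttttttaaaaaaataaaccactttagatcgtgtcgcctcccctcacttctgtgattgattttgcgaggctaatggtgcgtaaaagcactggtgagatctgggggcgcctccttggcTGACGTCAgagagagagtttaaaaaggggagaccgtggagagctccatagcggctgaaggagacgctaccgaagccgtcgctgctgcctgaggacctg
Fos: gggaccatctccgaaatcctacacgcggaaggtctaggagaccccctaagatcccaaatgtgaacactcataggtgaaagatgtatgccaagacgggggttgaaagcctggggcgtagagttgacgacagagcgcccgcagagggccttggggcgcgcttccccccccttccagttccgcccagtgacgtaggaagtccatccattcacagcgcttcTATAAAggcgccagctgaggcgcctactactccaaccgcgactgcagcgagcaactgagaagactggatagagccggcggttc

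Searched on both strands, TGACGTCA stood in 2.03% of 27025 RefSeq promoters and in 3.59% of the 10481 tested genes that had one. It stood in 5 of 24 neuropeptide and granin promoters, those of Scg2, Sst, Chgb, Cartpt and Pcsk1, and in 2 of 27 immediate early promoters, those of Dusp1 and Btg2. Of those 7 genes Scg2, Pcsk1 and Dusp1 passed the variability test and Sst, Chgb, Cartpt and Btg2 did not. The other motifs searched were TGANTCA for AP-1, TATAAA, GAGGAAGT for the macrophage factor PU.1, and the CArG box, which can contain TATAAA. They stood in 1, 5, 1 and 2 of the 27 immediate early promoters, in 5.90, 8.47, 3.15 and 1.60% of the promoters of tested genes and in 8.97, 15.7, 3.69 and 1.81% of all promoters. A motif that is absent from such a window says only that these letters are not there.

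The lower immediate early and peptide messages of replicate 3 stood beside other values of that library. Lyz2, Csf1r, Ctss, C1qb and Ttr were highest in that library, whereas Cd68 and Kl were highest in replicate 1. Of the 18 cell division genes 17 were highest in replicate 3, against 38.5% of all tested genes. Of 79 ribosomal protein genes 67 were lowest there, or 56 with the GC and length trends removed, against 38.5% of all tested genes. None of these 79 passed in edgeR, against 1.31% of all tested genes. An unadjusted p under 0.05 in edgeR was seen for 3 of them, against 833 of all 13548 tested genes, and none was a DESeq2 outlier. The astrocyte list summed to 15340 TPM in replicate 3, within the 14890 to 15702 TPM of the other two, and the general neuronal list was the highest of the 3 at 11794 TPM. Their part in the immediate early result was not tested.

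**Figure D5:**
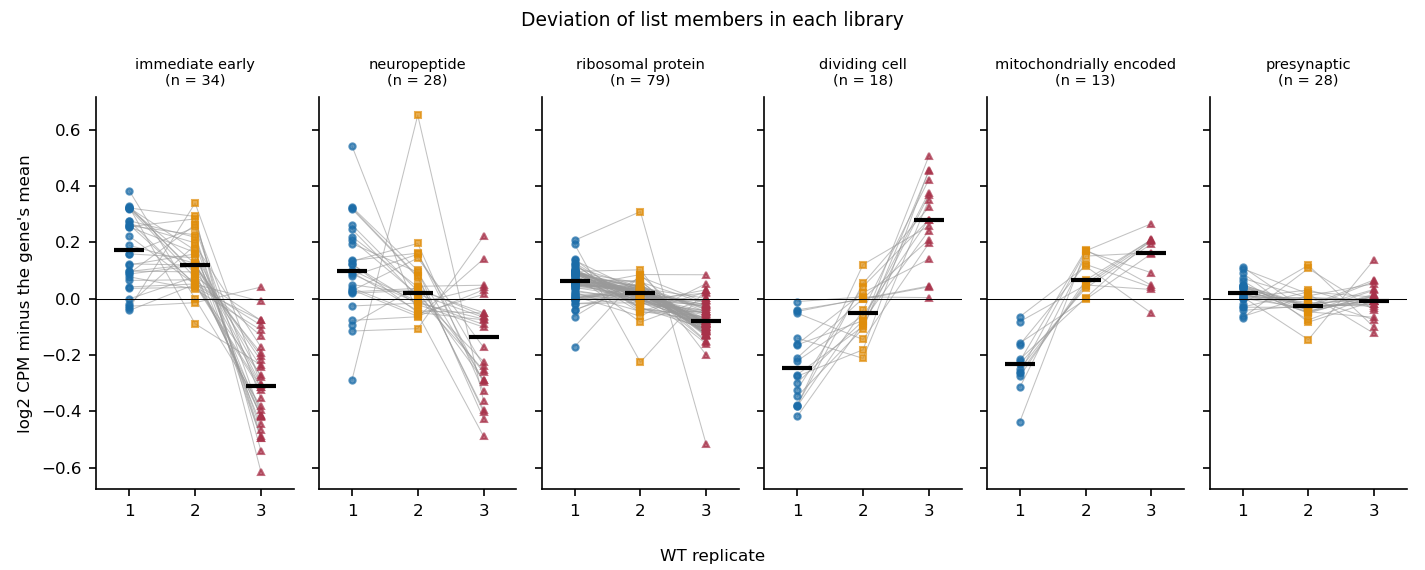
Deviation of each tested member from its own mean (vertical axis, log2 CPM) in replicates 1, 2 and 3, 1 panel per gene list, with thin lines joining the values of 1 gene and a bar at the median. Immediate early genes lie low in replicate 3, cell division genes lie high there, mitochondrial genes lie low in replicate 1 and presynaptic genes stay near 0.

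Mitochondrially encoded genes set replicate 1 apart. All 13 were lowest in that library, against 35.1% of tested genes, and 7 passed the test, against 1.31% of all tested genes. The largest range was that of mt-Nd2, a subunit of complex I, at 1618, 2458 and 2650 TPM (adjusted p 7.45e-08 by edgeR). Without replicate 1 none of the 13 passed in edgeR, without replicate 2 there was 1 and without replicate 3 there were 8. With the GC and length trends removed 12 of the 13 were still lowest in replicate 1 but only mt-Nd2 still passed. The 88 nuclear genes taken by name for the respiratory chain and ATP synthase summed to 33645 ± 488 TPM (SD, n = 3). They include assembly factors of complex I, such as Ndufaf5 and Ndufaf3, beside the subunits. These 88 genes showed no such shift, being lowest in replicate 1 for 27 of the 85 tested. None was called by edgeR, against 1.31% of all tested genes. None had an unadjusted p under 0.05 in edgeR, against 833 of all 13548 tested genes, and none was called by DESeq2.

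Glial genes varied in both directions. Olig1 was higher in replicate 3 at 426 TPM, against 315 and 347 TPM in the other two (adjusted p 0.0441 by edgeR), whereas Bcas1, a marker of newly forming oligodendrocytes, was lower there at 106 TPM against 177 and 152 TPM (adjusted p 2.83e-07). Gpr17, another gene of that stage, had 170, 152 and 126 TPM (adjusted p 0.0426) and Myrf, the factor that starts myelin genes, had 929, 699 and 525 counts (adjusted p 0.00255). Mobp, a myelin gene, was highest in replicate 3 at 56, 55 and 180 counts. In astrocytes and radial glia Fabp7, the brain lipid-binding protein gene, had 664, 658 and 927 TPM, and the GABA carrier Slc6a11 had 114, 126 and 160 TPM. Gpr17 no longer passed once the GC and length trends were removed, and Dcx, the only general neuronal marker that had passed, did not either.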

How the data were processed

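The 3 per-gene values of each WT library were used, as the authors deposited them in 1 table: raw gene counts, RPKM and TPM, per the file headers, which also say that reads had been trimmed. The submitters' processing notes name bcl2fastq, HISAT2, featureCounts, edgeR and GRCm38.p6, with no role, and which of them made the table is not given in the sources used here. The deposited RPKM and TPM rest on a gene length that was recovered from the values. It lay within 5% of the GENCODE M21 union exon length for 32.6% of 11516 genes, with a median ratio of 0.851, so ratios between genes are also given with the union length. Of the gene IDs, 99.864% matched GENCODE M21. Genes not matched by name, such as Malat1, Meg3 and Bcl11b, were not analysed here.

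Counts were scaled by TMM (factors 0.997 to 1.00) and filtered with filterByExpr as 1 group, which left 13548 genes holding 99.942% of counts. The test was edgeR's goodness-of-fit test, one-sided on 2 residual degrees of freedom, after an intercept-only fit with trended dispersion, with Benjamini-Hochberg adjustment and a threshold of 0.05 (edgeR 4.0.16, limma 3.58.1, DESeq2 1.42.0, R 4.3.3, pandas 2.3.3, scipy 1.17.1). The test was tried on simulated data first. The filter asks for enough counts in every library, so genes that are low in only 1 or 2 libraries fail it. A fit without the filter was therefore also run. GC and length trends were removed with natural splines of 5 degrees of freedom. This removal, and the counts of list members with a library left out, were chosen after seeing the data.

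Named genes were the 25 with the highest mean TPM, the 20 variable genes of at least 1 CPM with the largest range, up to 6 members of each list by TPM, members needed for the order of a receptor or transmitter family, up to 2 variable members per list and cell markers at 0. Others named beside a count were chosen after their values were seen. Genes were said to lie apart where their 3 deposited TPM values did not overlap, and the union lengths were not used for this. The members and lists were chosen with earlier results of these data known. Some genes of the lists are not reported here.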

Additional observations from a re-analysis of the deposited data

How the results depend on the processing

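No paired analysis was possible because the 3 WT libraries form 1 group. The count of 178 variable genes was 52 to 80 with 1 library left out, 99 as DESeq2 dispersion outliers, 1 by edgeR's quasi-dispersion and 110 at an adjusted p of 0.01. It was within 1.5 times of the main count under the other scalings and filters and, in an alternative chosen after seeing the data, after GC and length trends were removed (169). The count of 272 genes with a 2-fold range was 78 to 177 with 1 library left out, 3304 without a filter, 95 at a mean count of 50 or more, 1063 at a ratio of 1.5 and 42 at a ratio of 3. The coefficient of variation was 4.31 to 9.48% with 1 library left out.

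List sums depend on the unit. In CPM, without mitochondrially encoded genes and with GENCODE union lengths (the last chosen after seeing the data), the general neuronal sum was 10798, 12624 and 10281, the excitatory sum 3878, 3806 and 3656, the interneuron sum 2994, 3831 and 3852, the astrocyte sum 14588, 16593 and 16614 and the oligodendrocyte precursor sum 2431, 1546 and 1680. The myelin sum was 512 in CPM and 403 without mitochondrially encoded genes, and the microglia and macrophage sum 37.6 in CPM. The 25 highest genes held 7.17% of CPM and 8.38% of TPM without mitochondrially encoded genes. The cause of these changes was not tested.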
